A study of Mus musculus with 9 samples.

Results

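Dmp1, Mepe, Sost, Pdpn and Fgf23 are genes by which osteocytes, the cells embedded in bone matrix, are commonly recognised. They were taken by name, and all 5 were found among 19937 genes measured, each by a single probe set. Their expression was followed in MC3T3-E1 cells, a mouse preosteoblast line from calvaria (subclone 4), on Affymetrix Mouse Gene 1.0 ST arrays. All cells carried a lentiviral short hairpin RNA (shRNA) and had been sorted for the green fluorescent protein of the virus. The groups were proliferating cells with a scrambled hairpin at day 0 (Scr day 0), the same kind of cells after 9 days in osteogenic medium with ascorbic acid and beta-glycerophosphate (Scr day 9), and cells with a hairpin against Runx2, a transcription factor needed for osteoblast formation, after the same 9 days (shRunx2 day 9). There were 3 arrays per group, labelled as biological replicates. The cells are a single line, the labels name no second hairpin, and there was no shRunx2 group at day 0. Runx2 is not analysed here, and its knockdown was therefore not checked on these arrays.

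Osteocytes arise from osteoblasts that become surrounded by the matrix they deposit. Pdpn encodes podoplanin (also called E11 or gp38), a membrane glycoprotein of the early, embedding cell that takes part in the growth of its dendrites. Dmp1 and Mepe encode secreted phosphoproteins of the SIBLING family, which bind mineral or regulate its growth. Sost encodes sclerostin, an inhibitor of Wnt signaling at the receptors Lrp5 and Lrp6, and Fgf23 a hormone that makes the kidney excrete phosphate. Both are known as products of mature osteocytes.

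Values are log2 expression after robust multichip average (RMA) normalization, so a difference of 1 is a doubling. They were compared with limma, and rise and fall are used of genes with a Benjamini-Hochberg adjusted p under 0.05 over all 19937 genes. The table holds no detection calls, so a level that stayed flat cannot be told from background. Probe sets differ in how strongly they bind, and changes are given only between groups for the same gene.

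Of 7 measured osteoblast markers, 4 rose from Scr day 0 to Scr day 9, among them Ibsp and Alpl, and the same 4 fell in shRunx2 cells. None of 7 lymphatic and blood endothelial markers and none of 6 macrophage and leukocyte markers passed in any comparison. Sox9, a chondrocyte regulator, rose in shRunx2 cells (log2 change 0.20) and was the only 1 of 6 chondrocyte markers to pass there. Cebpa was the only 1 of 6 adipocyte markers to pass, in both day 9 groups against Scr day 0 (0.38 and 0.44). Of all genes, 14.5% rose and 17.1% fell from Scr day 0 to Scr day 9. In shRunx2 against Scr cells at day 9, 2.73% rose and 4.66% fell.

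Promoter sequence was read because the hairpin was aimed at a transcription factor of the Runx family. It is shown for the genes that moved most at day 9 (Pdpn and Dmp1). Mepe is shown as well, a gene that passed in no comparison but whose window held matches to the motifs below. The windows of Sost and Fgf23 were searched too but are not printed. The 250 bases before each annotated start were read from RefSeq (GRCm38.p6) and searched on both strands for the Runx core motifs TGTGGT and TGCGGT. Capitals mark a match.

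Pdpn, chr4:143299565-143299814, minus strand: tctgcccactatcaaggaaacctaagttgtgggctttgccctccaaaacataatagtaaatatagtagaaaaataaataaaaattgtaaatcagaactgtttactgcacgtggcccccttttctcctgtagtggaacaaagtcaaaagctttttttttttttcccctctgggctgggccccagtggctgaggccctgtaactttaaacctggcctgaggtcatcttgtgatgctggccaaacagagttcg

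Dmp1, first start, chr5:104197325-104197574, plus strand: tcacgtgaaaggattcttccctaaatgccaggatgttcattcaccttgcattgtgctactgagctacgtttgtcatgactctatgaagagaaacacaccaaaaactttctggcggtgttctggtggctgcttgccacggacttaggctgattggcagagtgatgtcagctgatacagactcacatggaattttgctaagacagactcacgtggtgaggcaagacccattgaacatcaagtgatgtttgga

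Dmp1, second start, chr5:104202367-104202616, plus strand: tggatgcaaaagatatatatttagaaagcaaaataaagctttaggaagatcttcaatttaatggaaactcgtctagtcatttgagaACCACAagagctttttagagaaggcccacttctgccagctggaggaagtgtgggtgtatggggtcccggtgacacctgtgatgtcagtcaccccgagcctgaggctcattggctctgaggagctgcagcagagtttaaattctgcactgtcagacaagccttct

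Mepe, chr5:104325079-104325328, plus strand: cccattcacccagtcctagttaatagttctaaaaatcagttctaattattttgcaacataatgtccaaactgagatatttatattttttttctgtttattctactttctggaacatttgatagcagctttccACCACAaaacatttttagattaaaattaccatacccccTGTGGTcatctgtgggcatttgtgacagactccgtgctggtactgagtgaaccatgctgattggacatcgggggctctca

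The Mepe window held 2 matches, ACCACA (the reverse complement of TGTGGT) beginning 118 bases before the start and TGTGGT beginning 80 bases before it. The window of the second Dmp1 start held 1, ACCACA at 164 bases before the start. The windows of Pdpn, Sost, Fgf23 and the first Dmp1 start held none, nor did that of Ibsp. Of all 32851 RefSeq windows of this length, 18.6% held a match to either motif. A match describes letters in this window only, and binding was not measured on these arrays.

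Differentiation was examined first, to see which osteocyte genes changed as scrambled-hairpin cells were cultured for 9 days. Pdpn fell and Dmp1 rose, while Mepe, Sost and Fgf23 did not pass. Thus 1 of 5 genes rose and 1 fell, where 14.5% of all genes rose and 17.1% fell. The median log2 change of the 5 was -0.034, and that of all genes -0.016.

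Pdpn, the early osteocyte gene, read 12.38, 12.31 and 12.36 on the Scr day 0 arrays (log2 expression, replicates 1 to 3) and 11.82, 11.89 and 11.81 on the Scr day 9 arrays. All 3 arrays of day 9 lay below all 3 of day 0. The log2 change was -0.51 ± 0.038 (SE, 95% confidence interval -0.60 to -0.43), a level 1.42-fold lower at day 9 (limma, adjusted p = 1.1e-06). In these bulk samples, less Pdpn RNA per cell and fewer cells expressing it cannot be told apart.

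Dmp1 moved the other way and by less. Its mean lay below that of the median gene, and without detection calls its distance from background is not known. Its log2 expression was 7.45, 7.65 and 7.76 in Scr day 0 cells and 7.96, 8.04 and 7.79 in Scr day 9 cells. The groups did not overlap, although the highest day 0 array lay only just below the lowest day 9 array. The log2 change was 0.31 ± 0.082 (SE, 95% confidence interval 0.13 to 0.49), or 1.24-fold (limma, adjusted p = 0.0113). Without Scr day 9 replicate 2, its highest array, Dmp1 no longer passed (log2 change 0.26, adjusted p = 0.0541). Pdpn and Dmp1 were the 2 of 5 genes whose groups did not overlap, and 40.2% of all genes met that criterion.

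**Figure D1:**
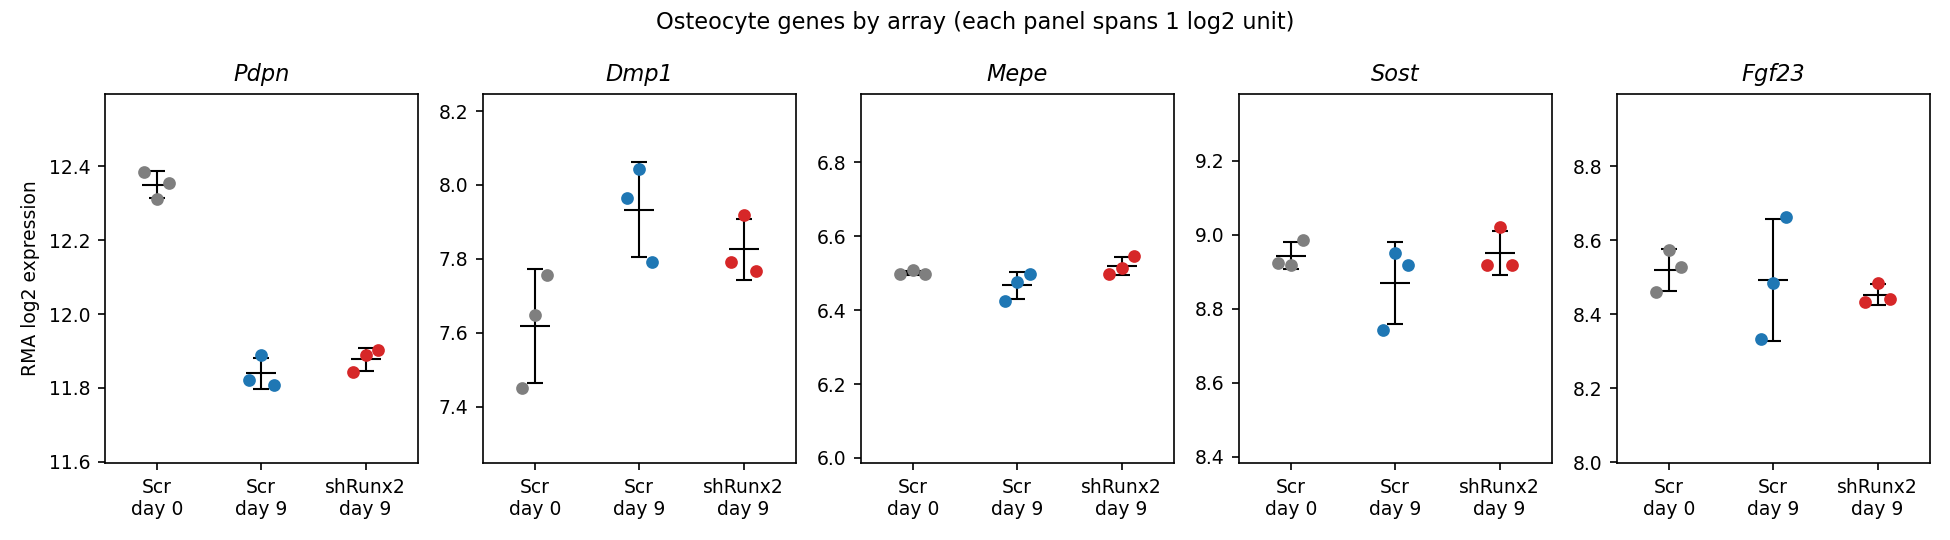
RMA log2 expression (vertical axis, each panel spanning 1 log2 unit) of the 5 osteocyte genes against group (horizontal axis). Each point is 1 array, and the black bars give mean and SD (n = 3). Pdpn steps down from 12.35 to 11.84 at day 9 and Dmp1 up from 7.62 to 7.93, while the groups of Mepe, Sost and Fgf23 overlap.

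The genes of mature osteocytes gave no change that passed. Sost read 8.93, 8.92 and 8.99 at Scr day 0 and 8.74, 8.95 and 8.92 at Scr day 9. Its log2 change was -0.073 ± 0.055 (adjusted p = 0.390), with a confidence interval that allows a fold between 0.874 and 1.03. Fgf23 read 8.46, 8.57 and 8.53 at day 0 and 8.33, 8.49 and 8.66 at day 9.

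The Fgf23 arrays of day 9 lay on both sides of those of day 0. Its log2 change was -0.028 ± 0.069 (adjusted p = 0.826), which allows a fold between 0.883 and 1.09. The sign turned to 0.053 without Scr day 9 replicate 1. Mepe varied least, at 6.50, 6.51 and 6.50 at day 0 and 6.43, 6.48 and 6.50 at day 9.

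For Mepe the log2 change was -0.034 ± 0.035 (adjusted p = 0.538), which allows a fold between 0.926 and 1.03. Like Dmp1, Mepe and Fgf23 had means below that of the median gene. Without detection calls their distance from background is not known, and their intervals bound the probe set readings only. Some arrays held the same value to the last digit. Mepe took 6 distinct values over the 9 arrays, Sost 7, Dmp1 and Fgf23 8 each and Pdpn 9. Such ties occurred in 49.6% of all genes, and 14.1% took 6 values or fewer.

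Expression at day 9 was next compared between shRunx2 and Scr cells, to see whether the osteocyte genes differed between cells with the hairpin against Runx2 and those with the scrambled hairpin. None of the 5 rose or fell (limma, adjusted p from 0.481 for Mepe to 0.817 for Fgf23, and unadjusted p from 0.166 for Mepe). Among all genes 2.73% rose and 4.66% fell. In each of the 5 the shRunx2 arrays overlapped the Scr arrays, whereas 23.7% of all genes did not overlap. Their median log2 change was 0.039 against -0.0041 for all genes.

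Pdpn read 11.84, 11.89 and 11.90 on the shRunx2 arrays, with a log2 change from Scr day 9 of 0.039 ± 0.038 (SE). The confidence interval allows a fold between 0.969 and 1.09. Dmp1 read 7.79, 7.92 and 7.77 on the shRunx2 arrays and was the gene with the largest estimate here, -0.11 ± 0.082 (adjusted p = 0.542). Its interval allows a fold between 0.819 and 1.05.

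Mepe, whose promoter window holds 2 Runx motif matches, read 6.50, 6.51 and 6.55 in shRunx2 cells. Its log2 change was 0.052 ± 0.035, which allows a fold between 0.983 and 1.09. Sost read 8.92, 9.02 and 8.92, with a log2 change of 0.082 ± 0.055 and a fold between 0.972 and 1.15 allowed. Both estimates lay above 0, but by less than the range of the Scr day 9 arrays.

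Fgf23 read 8.43, 8.49 and 8.44, with a log2 change of -0.040 ± 0.069 and a fold between 0.875 and 1.08 allowed. The shRunx2 arrays of Fgf23 lay close together (SD 0.028, n = 3), inside the wider range of the Scr day 9 arrays (SD 0.17, n = 3). Its sign turned to 0.045 without Scr day 9 replicate 3.

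Set against Scr day 0, shRunx2 cells at day 9 had less Pdpn (log2 change -0.47 ± 0.038, 1.39-fold lower, adjusted p = 1.92e-06), and the other 4 genes did not pass. The shRunx2 arrays of Pdpn all lay below the Scr day 0 arrays. Those of Dmp1 all lay above them, with a log2 change of 0.21 ± 0.082 that missed the threshold (adjusted p = 0.0768). Without Scr day 0 replicate 3 it passed (0.28, adjusted p = 0.0282).

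No osteocyte gene rose and 1 fell in this comparison, where 13.8% of all genes rose and 20.4% fell, and 2 of 5 did not overlap, against 42.3% of all genes. For Mepe (0.018 ± 0.035), Sost (0.0088 ± 0.055) and Fgf23 (-0.067 ± 0.069) the log2 changes were within 1 SE of 0. The order of the group means was thus Scr day 0 above both day 9 groups for Pdpn, whose 2 day 9 groups did not differ beyond their spread. For Dmp1 it was Scr day 9, shRunx2 day 9 and Scr day 0, in which the first differed from the last and neither neighbouring pair passed. The day 9 and knockdown comparisons share the Scr day 9 arrays, so their values for a gene are not independent.

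**Figure D2:**
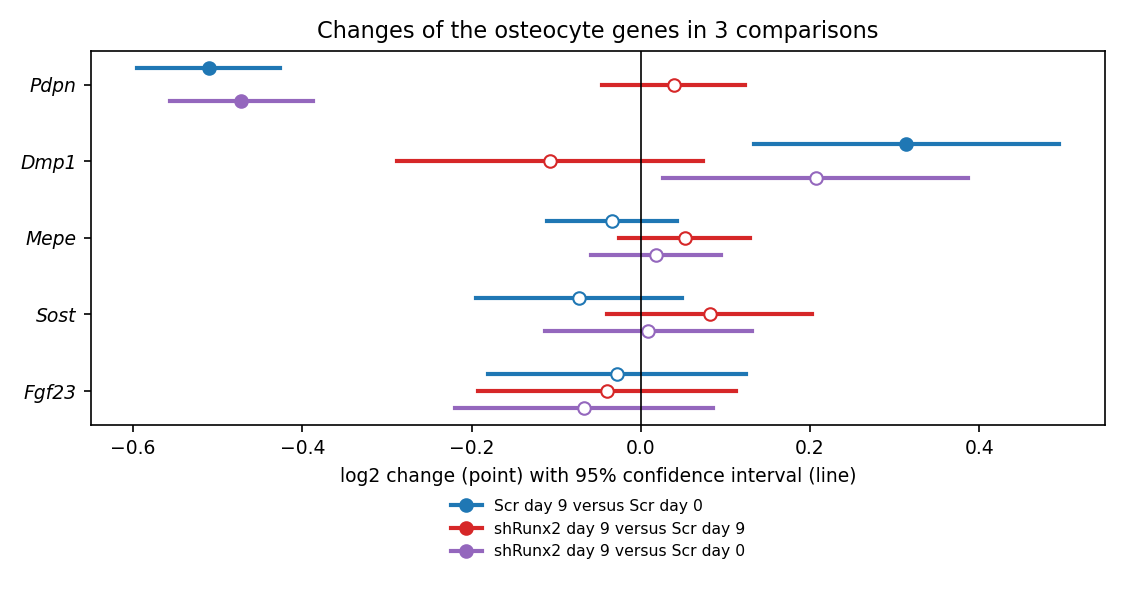
Log2 change (horizontal axis) of each osteocyte gene (vertical axis) in 3 comparisons, shown as a point with its 95% confidence interval as a line; filled points passed at adjusted p under 0.05. Pdpn lies at -0.51 and -0.47 against Scr day 0 and at 0.039 between the day 9 groups, and Dmp1 passes only at Scr day 9 against Scr day 0 (0.31).

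Dmp1 and Mepe belong to a cluster of SIBLING genes on mouse chromosome 5, where RefSeq (GRCm38.p6) places Dspp, Dmp1, Ibsp and Mepe in this order with no other protein-coding gene between them. Ibsp, which encodes bone sialoprotein, a mineral-binding protein of bone, read 7.48, 7.41 and 7.52 at Scr day 0, 11.16, 11.27 and 11.26 at Scr day 9 and 10.14, 10.07 and 10.11 in shRunx2 cells. It rose 13.6-fold at day 9 (log2 change 3.76 ± 0.044) and fell 2.18-fold in shRunx2 cells (-1.12 ± 0.044).

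Dspp, which encodes a precursor of dentin proteins, did not pass in either comparison (-0.087 ± 0.055 and -0.0032 ± 0.055). Between Dspp and Ibsp, Dmp1 rose by 0.31, and next to Ibsp on the other side Mepe had a log2 change of -0.034. The probe set of Ibsp thus changed far more at day 9 than those of Dspp, Dmp1 or Mepe, all of them on the same arrays. Without detection calls, the flat readings of Dspp and Mepe cannot be told from background. How far the changes of their transcripts differed from that of Ibsp is therefore not known. The family member Spp1 was not analysed here.

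**Figure D3:**
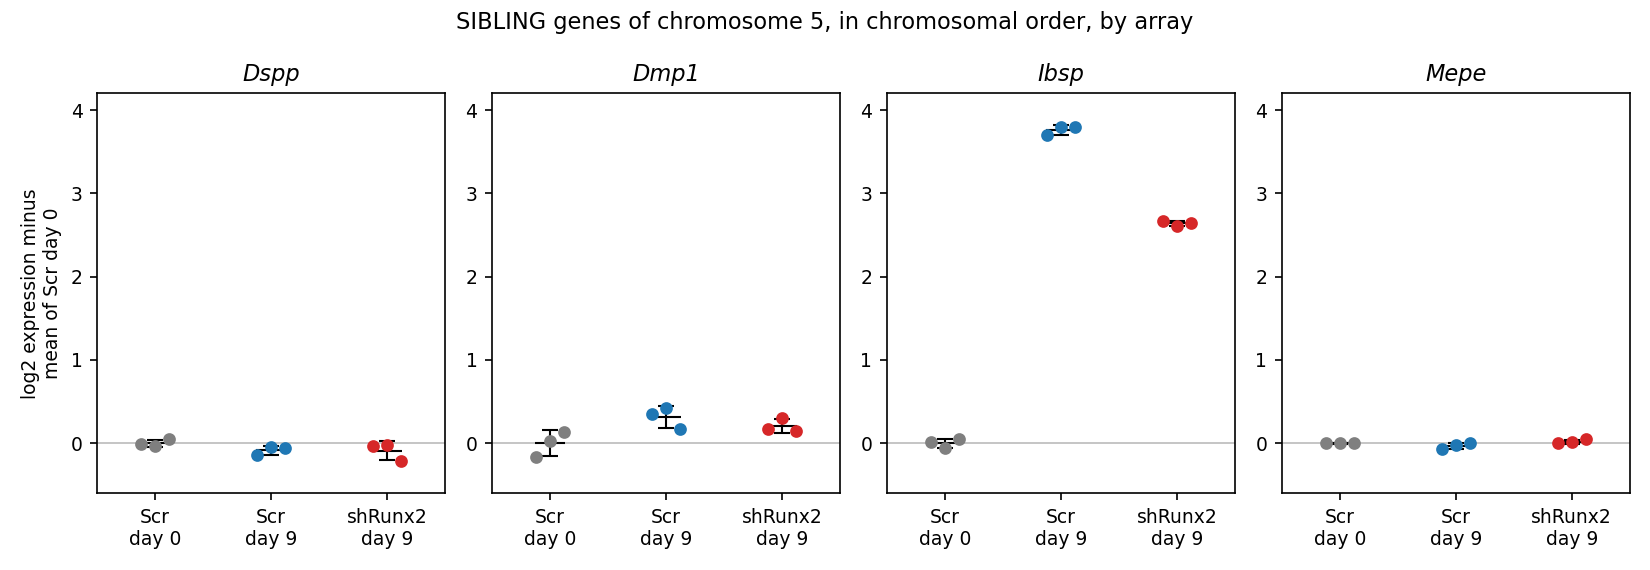
Log2 expression minus the mean of Scr day 0 (vertical axis) for the SIBLING genes Dspp, Dmp1, Ibsp and Mepe of chromosome 5 against group (horizontal axis). Each point is 1 array, and the black bars give mean and SD (n = 3). Ibsp stands 3.76 above its day 0 mean at Scr day 9 and 2.64 above it in shRunx2 cells, while Dmp1 stands 0.31 above at Scr day 9 and Dspp and Mepe lie near 0.

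Other genes linked to osteocytes changed in both directions at day 9. Of 13 such genes, 4 rose, 4 fell and 5 did not pass at Scr day 9 (median log2 change -0.0079, all genes -0.016). Phex, an endopeptidase gene of osteocytes whose loss raises Fgf23, rose 5.39-fold, and Gja1, which encodes the gap junction protein connexin 43, was 1.72-fold lower (-0.78 ± 0.0445). Also lower were the chaperone gene Hyou1 (-0.37 ± 0.046) and Dstn, which encodes the actin-severing protein destrin (-0.25 ± 0.043). In shRunx2 cells 1 of 13 fell, Phex (-1.94 ± 0.062), and 12 did not pass (median 0.025, all genes -0.0041). Phex thus moved where Dmp1, Mepe, Sost, Pdpn and Fgf23 did not pass. The counts of this list and the next ones stand beside 14.5% of all genes rising and 17.1% falling at Scr day 9. In shRunx2 against Scr cells at day 9 the shares were 2.73% and 4.66%.

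Genes that process Fgf23, sense it or move phosphate were also examined, because Fgf23, Dmp1, Mepe and Phex act on phosphate balance. Of 16 measured genes of phosphate and mineral regulation, 7 rose, 2 fell and 7 did not pass at Scr day 9 (median 0.037). Fam20c, a kinase that phosphorylates secreted proteins including the SIBLING family, rose 2.36-fold (1.24 ± 0.040) and Alpl, the alkaline phosphatase of bone, 2.61-fold (1.39 ± 0.074). Vdr, the vitamin D receptor, was 1.73-fold lower (-0.79 ± 0.0325). The 3 genes closest to Fgf23, picked for their role after the values were seen, were its receptor Fgfr1, which rose (0.63 ± 0.034), its coreceptor Kl (0.061) and the glycosyltransferase Galnt3 that protects it from cleavage (-0.059), and the last 2 did not pass.

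In shRunx2 cells 5 of these 16 genes fell, none rose and 11 did not pass (median -0.082). Besides Phex and Alpl (-0.75 ± 0.074), these were the parathyroid hormone receptor gene Pth1r (-0.42 ± 0.047), Vdr (-0.28 ± 0.0325) and the phosphate transporter gene Slc20a2 (-0.14 ± 0.036, adjusted p = 0.0392), which was named after its value was seen.

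Sclerostin acts through Wnt receptors, and Sost transcription is known to depend on Mef2 factors and class II histone deacetylases. While Sost itself did not pass, 8 of 15 measured genes of this group rose, 3 fell and 4 did not pass at Scr day 9 (median 0.24). Mef2a rose 2.07-fold (1.05 ± 0.057), the Wnt antagonist gene Dkk2 1.62-fold (0.70 ± 0.046) and Hdac5 1.32-fold (0.40 ± 0.0385). Lrp4, which encodes a sclerostin-binding receptor, was 1.33-fold lower (-0.41 ± 0.0375). The receptor genes Lrp6 (-0.41 ± 0.042) and Lrp5 (-0.12 ± 0.038, limma, adjusted p = 0.0321) also fell, and both were named after their values were seen. In shRunx2 cells 2 of 15 rose, 2 fell and 11 did not pass (median 0.045). Dkk2 (0.68 ± 0.046) and Sostdc1 (0.23 ± 0.057), a relative of Sost, rose, and Hdac4 (-0.49 ± 0.060) and Hdac5 (-0.16 ± 0.0385) fell.

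Podoplanin is tied to the actin cytoskeleton by ezrin, radixin and moesin. Of 9 genes for its partners, 3 rose, 3 fell and 3 did not pass at Scr day 9 (median -0.068). The 3 that fell along with Pdpn were Msn (-0.57 ± 0.042), Rdx (-0.27 ± 0.038) and Ezr (-0.27 ± 0.046), which encode moesin, radixin and ezrin. The 3 that rose were Cd9 (0.70 ± 0.050), Mmp14 (0.39 ± 0.040) and Cd44 (0.13 ± 0.0405), of which Cd44 and Ezr were named after their values were seen. In shRunx2 cells none of the 9 passed (smallest adjusted p = 0.0924, for Mmp14). Lymphatic endothelial cells also express Pdpn, and the mean log2 level of 7 lymphatic and blood endothelial markers lay between 7.68 and 7.71 on Scr day 0 arrays and between 7.63 and 7.69 on Scr day 9 arrays. The samples were cultures of a single preosteoblast line and not tissue, and a part of other cells in the level of Pdpn was not tested.

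**Figure D4:**
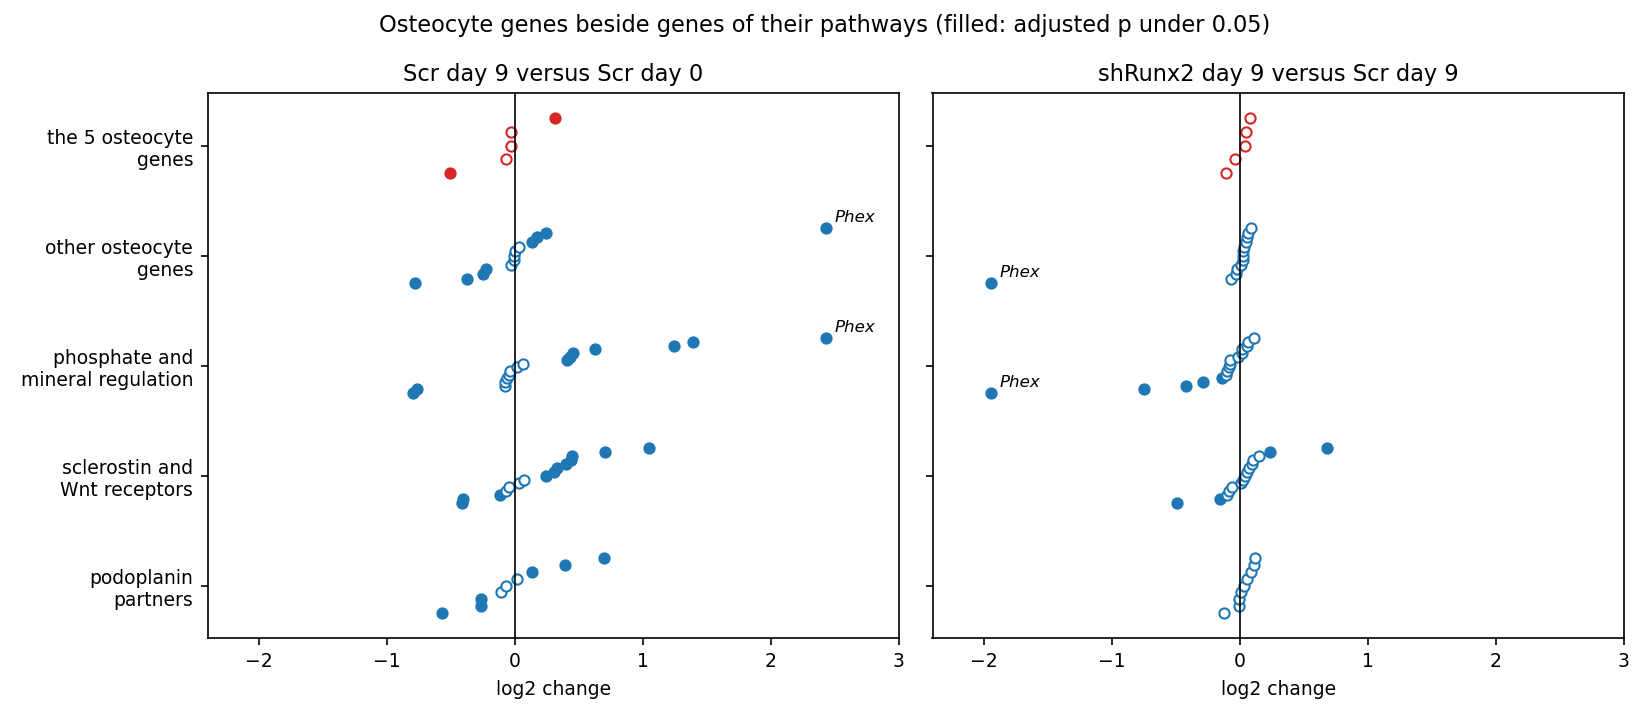
Log2 change (horizontal axis) at Scr day 9 against Scr day 0 (left) and in shRunx2 against Scr cells at day 9 (right) for the 5 osteocyte genes and for 4 groups of related genes (vertical axis), with 1 point per gene, filled where adjusted p was under 0.05. The 5 osteocyte genes stay between -0.51 and 0.31 on the left and between -0.11 and 0.082 on the right, where Phex lies at -1.94.

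Among all genes, those whose log2 values followed Pdpn most closely over the 9 arrays were Slc12a2 (Pearson r = 0.997), Ripor2 (0.997), Msx2 (0.996), Plxna1 (0.995) and Me1 (0.995). Slc12a2 encodes a sodium, potassium and chloride cotransporter, Msx2 a homeodomain factor of skeletal development, Plxna1 a semaphorin receptor and Me1 the cytosolic malic enzyme. All 5 had a negative log2 change at Scr day 9, from -0.80 (Plxna1) to -1.58 (Ripor2), and values from 0.030 (Me1) to 0.10 (Msx2) in shRunx2 against Scr cells. A pattern of this kind was common, since 1821 genes had r above 0.9 with Pdpn.

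Dmp1 had 38 genes with r above 0.9. The closest were Bmf (r = 0.967), Zfp704 (0.966), Ypel1 (0.956), Ogfod2 (0.956) and Abca3 (0.953). Bmf encodes a proapoptotic protein of the Bcl2 family and Abca3 a lipid transporter. Their log2 changes at Scr day 9 lay between 0.092 (Ogfod2) and 0.21 (Zfp704), each smaller than that of Dmp1. These correlations describe 9 arrays that fall into 3 groups and share their scaling.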

How the data were processed

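The deposited values are log2 expression values that the authors made with RMA (background correction, quantile normalization and median polish of each probe set). The submitters' processing notes name RMA and limma. A filter is mentioned in the methods without detail, and no genome build for the probe sets is given in the sources used here. Precision is limited by the number of arrays.

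Of 34760 probe sets, 21640 carried 1 gene symbol in the platform annotation. For genes with several, the probe set with the highest mean over 9 arrays was kept, leaving 19937 genes, of which 19855 had an identifier in the RefSeq table (GRCm38.p6). Group means of all 9 arrays were fitted in 1 model by lmFit and eBayes (limma 3.58.1, run under R 4.3.3; two-sided), without covariates, and p-values were adjusted by Benjamini-Hochberg over all genes. The script was tested on simulated data. Intervals are 95% and unadjusted.

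The genes, the lists of related genes and the tests were chosen with earlier results of these data known, so no pattern is independent evidence. The lists were those of other osteocyte genes, phosphate and mineral regulation, the SIBLING family, sclerostin and Wnt receptors, podoplanin partners, and markers of osteoblasts, endothelium, macrophages and leukocytes, adipocytes and chondrocytes. Some list members are not analysed here. Named were the 5 genes, every SIBLING gene analysed here, up to 4 genes per list and comparison with the smallest adjusted p, and the 5 genes most correlated with each called gene. Promoter windows were cut at the start site to leave out transcribed bases. Alternatives were each array left out, the replicate number as a block, only the groups compared, every probe set, the mean over probe sets, genes above the median, median-centred arrays, array weights and an intensity trend.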

Additional observations from a re-analysis of the deposited data

How the results depend on the processing

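Pdpn kept its direction and its call against Scr day 0 in all 17 alternatives, with log2 changes from -0.551 to -0.468 (Scr day 9) and from -0.535 to -0.454 (shRunx2). Dmp1 at Scr day 9 passed in 15 of 16 alternatives (log2 change 0.231 to 0.384, adjusted p 0.00182 to 0.0541), all but the one without Scr day 9 replicate 2. The smallest of these adjusted p-values came with array weights. That fit gave the same replicate a weight of 3.43, against 0.401 and 0.971 for Scr day 9 replicates 1 and 3. Against Scr day 0, Dmp1 in shRunx2 cells ranged from 0.124 to 0.276 with single arrays left out, and passed only without Scr day 0 replicate 3. No gene of the 5 passed between shRunx2 and Scr at day 9 in any alternative. Several alternatives could change only the SE and adjusted p, not the log2 change, as each gene has a single probe set. These were every probe set, the mean over probe sets, genes above the median, the intensity trend and the replicate block. Fits of only the groups compared, or without an array of the third group, were also of this kind.

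Signs turned only where the change had not passed. With arrays left out, Fgf23 ranged from -0.112 to 0.053 at Scr day 9 and from -0.12 to 0.0446 between the day 9 groups, and Sost from -0.0254 to 0.0298 in shRunx2 against Scr day 0. In that last comparison, median-centred arrays gave -0.046 for Mepe and -0.0548 for Sost. The median over all probe sets was 8.416 to 8.448 on Scr day 0 arrays and 8.483 to 8.51 on shRunx2 arrays. Centring takes that difference away from every gene, and why the medians differed was not tested. With only genes above the median, Dmp1, Mepe and Fgf23 were not tested.

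Between the day 9 groups 1474 genes passed, but 2590 did with array weights and 858 to 1502 with an array left out (858 without Scr day 9 replicate 2, 919 without shRunx2 replicate 1). The replicate numbers were not taken to pair the samples: residuals of same-numbered arrays correlated between -0.114 and 0.294, below 0 in 4 of 9 pairs. Those 4 pairs all held a shRunx2 array, and the same-numbered pairs of Scr day 0 and Scr day 9 gave 0.294, 0.0823 and 0.285. Differently numbered arrays correlated between -0.293 and 0.115, so some pairing of the Scr arrays is possible. The highest correlation was with an array of the same number for 6 of 9 arrays, and 2 of 9 correlated best with their own number in both other groups. With the replicate block 1450 genes passed and no call of the 5 genes changed.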
